A study of Mus musculus with 64 samples.

Results

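Dystroglycan and 6 enzymes that build the sugar chain by which it holds laminin were followed in mouse gastrocnemius, a mostly fast-twitch calf muscle, across genotype, time of day, exercise and sex. The 7 genes were taken by name from the deposited gene counts: Pomt1, Pomt2, Pomk, Pomgnt1, Pomgnt2, Rxylt1 and Dag1. All 7 were found among the 55401 annotated genes, and all 7 were among the 15241 genes with enough counts to be tested.

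Dystroglycan links the muscle fiber to the basement membrane around it. Its β subunit spans the membrane and binds dystrophin, and its α subunit, cut from the same precursor, binds laminin through a long sugar polymer called matriglycan that sits on O-linked mannose. Loss of the enzymes that make this chain causes the dystroglycanopathies, a group of muscular dystrophies often joined by brain and eye malformation.

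The mice carried loxP sites in both copies of Hif1α, which encodes the oxygen-regulated subunit of the transcription factor HIF1, on a C57BL/6JBomTac background. Controls (fl/fl) lacked Cre, whereas HIF1α KO littermates also carried 1 copy of an HSA-Cre transgene, in which the human α-skeletal actin promoter drives Cre in skeletal muscle fibers. Mice of both genotypes were 12 to 18 weeks old. They either ran on a treadmill for 60 min, at up to 16 m/min on a 5% incline, or had a sham treatment. This took place at ZT3 (early rest phase, 3 h after lights on) or at ZT15 (early active phase), and muscle was taken 3 h later. Each of the 8 groups held 4 males and 4 females, except that exercised HIF1α KO mice at ZT3 numbered 7, because the library of mouse 44 held too few counts to use, none of them on the 7 genes. All fl/fl and HIF1α KO mice share the floxed alleles, and Cre is present in one genotype only. Deletion of Hif1α, presence of Cre and DNA inherited along with the transgene therefore cannot be told apart.

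The 63 libraries held 2359780 to 40377963 gene-assigned counts (median 16236352), and 3 of them, from mice 41, 42 and 48, held under 5e6 counts. The 6 fiber genes (Acta1, Ckm, Tnnt3, Myh4, Myh1 and Pvalb) summed to between 81526 and 153608 CPM (counts scaled to library size) in every library, so the libraries hold skeletal muscle as labelled. Vessel, nerve, connective tissue and blood cells were sequenced together with the fibers, and these cells keep Hif1α. For every gene, therefore, fewer cells of a type and less RNA per cell cannot be told apart. Total Hif1a counts did not differ by genotype (log2 fold change 0.00, SE 0.0492, edgeR quasi-likelihood adjusted p = 0.979), and since counts over the whole gene include the exons outside the loxP sites, they check neither deletion nor label. The paper reports a reduction of Hif1α transcripts in quadriceps of HIF1α KO mice, a muscle not sequenced here.

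HIF1 binds DNA at the core letters ACGTG or GCGTG, and the clock factors BMAL1 and CLOCK bind the related letters CACGTG, in which ACGTG lies on both strands. RefSeq (GRCm38.p6) gave start-site windows of 250 bases before to 50 bases after the start for 6 of the 7 genes. No window was available for Pomk. A set of 5 windows is shown 5′ to 3′ on the gene's own strand, with every match to these letters or to their reverse complement in capitals. Read from the other strand, GCGTG appears as CACGC. The set holds the windows of Pomgnt1 and Rxylt1, which differed by genotype, of Pomt1, which holds the same 6-letter word as Pomgnt1 but did not differ, and of Dag1, the substrate.
Pomgnt1, chr4:116150268-116150567, plus strand: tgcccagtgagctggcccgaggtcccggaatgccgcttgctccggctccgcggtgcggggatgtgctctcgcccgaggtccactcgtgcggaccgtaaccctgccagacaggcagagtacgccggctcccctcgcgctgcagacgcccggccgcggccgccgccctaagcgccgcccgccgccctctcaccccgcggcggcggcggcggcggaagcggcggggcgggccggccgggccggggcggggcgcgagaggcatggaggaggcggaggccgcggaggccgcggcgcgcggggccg
Pomgnt1, chr4:116151181-116151480, plus strand: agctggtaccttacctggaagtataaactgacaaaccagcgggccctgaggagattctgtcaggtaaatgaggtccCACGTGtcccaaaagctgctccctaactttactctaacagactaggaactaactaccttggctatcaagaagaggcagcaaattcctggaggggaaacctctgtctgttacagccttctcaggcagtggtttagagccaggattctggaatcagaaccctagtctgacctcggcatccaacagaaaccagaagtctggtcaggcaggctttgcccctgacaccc
Rxylt1, chr10:122097121-122097420, minus strand: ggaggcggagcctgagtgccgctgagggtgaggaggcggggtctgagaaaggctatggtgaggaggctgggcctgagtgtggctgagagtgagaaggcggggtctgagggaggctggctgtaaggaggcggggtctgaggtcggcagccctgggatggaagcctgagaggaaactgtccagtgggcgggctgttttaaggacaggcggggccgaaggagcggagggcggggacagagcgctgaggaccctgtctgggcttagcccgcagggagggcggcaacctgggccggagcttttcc
Pomt1, chr2:32236390-32236689, plus strand: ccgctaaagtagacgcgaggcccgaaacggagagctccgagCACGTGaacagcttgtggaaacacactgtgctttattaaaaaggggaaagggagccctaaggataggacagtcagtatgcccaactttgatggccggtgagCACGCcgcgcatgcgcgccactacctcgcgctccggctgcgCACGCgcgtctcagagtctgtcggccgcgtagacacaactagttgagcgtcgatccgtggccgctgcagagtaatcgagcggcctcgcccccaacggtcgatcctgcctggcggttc
Dag1, chr9:108263766-108264065, minus strand: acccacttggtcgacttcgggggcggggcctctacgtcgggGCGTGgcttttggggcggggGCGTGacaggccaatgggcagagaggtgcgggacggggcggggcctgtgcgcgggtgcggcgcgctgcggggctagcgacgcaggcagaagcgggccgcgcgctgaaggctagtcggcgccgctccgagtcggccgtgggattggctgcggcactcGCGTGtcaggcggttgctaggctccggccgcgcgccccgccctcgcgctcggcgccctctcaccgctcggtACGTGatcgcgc

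Pomgnt1 has 2 annotated start windows of unlike make-up. The first held no match, was 80.7% G or C and contained 51 CpG pairs, more than 99.3% of all 32851 mouse start windows. The second held CACGTG at position -174 from the start, was 50.7% G or C and contained 3 CpG pairs. Rxylt1 had no match to any of the 3 words, whereas Pomt1 had CACGTG at position -209 and 2 copies of CACGC. The Dag1 window shown held GCGTG 3 times upstream of the start and ACGTG 38 bases past it. Of the windows not shown, Pomgnt2 held CACGC at its start and Pomt2 held 2 copies of CACGC and 1 of ACGTG. Another Dag1 window, also not shown, held GCGTG at positions -119, -66 and -46. Among all mouse start windows, 19.6% held ACGTG, 32.4% GCGTG and 7.15% CACGTG on either strand, and 43.8% held ACGTG or GCGTG. In the 22083 windows within the members' range of G or C content, these shares were 22.9%, 42.6%, 8.93% and 54.2%. The words are therefore common. A match is a description of letters and not a binding site.

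Per kilobase of annotated exon, the substrate stood far above the enzymes Pomgnt1, Rxylt1, Pomk, Pomgnt2, Pomt1 and Pomt2. Other enzymes of the chain were not compared per kilobase. Over the 63 libraries Dag1 averaged 19.01 ± 4.68 CPM per kb (SD), followed by Pomgnt1 at 6.75 ± 1.05, Rxylt1 at 4.55 ± 0.699, Pomk at 3.38 ± 0.822, Pomgnt2 at 2.59 ± 0.467, Pomt1 at 1.44 ± 0.307 and Pomt2 at 1.39 ± 0.178. Dag1 exceeded Pomgnt1 in 62 of 63 libraries, Pomgnt1 exceeded Rxylt1 in 63, Rxylt1 exceeded Pomk in 60 and Pomgnt2 exceeded Pomt1 in 63. Pomk and Pomgnt2 were closer, with Pomk higher in 51 of 63 libraries. Pomt1 and Pomt2, whose products work as a heterodimer, were not separable per kilobase, since Pomt1 was the higher in 35 of 63.

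Pomk, Pomgnt1 and Rxylt1 rose in HIF1α KO muscle when the 4 combinations of time and treatment were averaged (adjusted p under 0.1). These are 3 of 7, and no member fell. The background in that comparison was 8.26% of the 15241 genes called in either direction and 4.68% called higher in HIF1α KO. The 7 genes were chosen with earlier results of these data known, so 3 of 7 against this background is a description and carries no test. The median log2 fold change of the 7 genes was 0.03, against -0.00 for all genes tested, because the other 4 genes lay near or below 0.

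**Figure D1:**
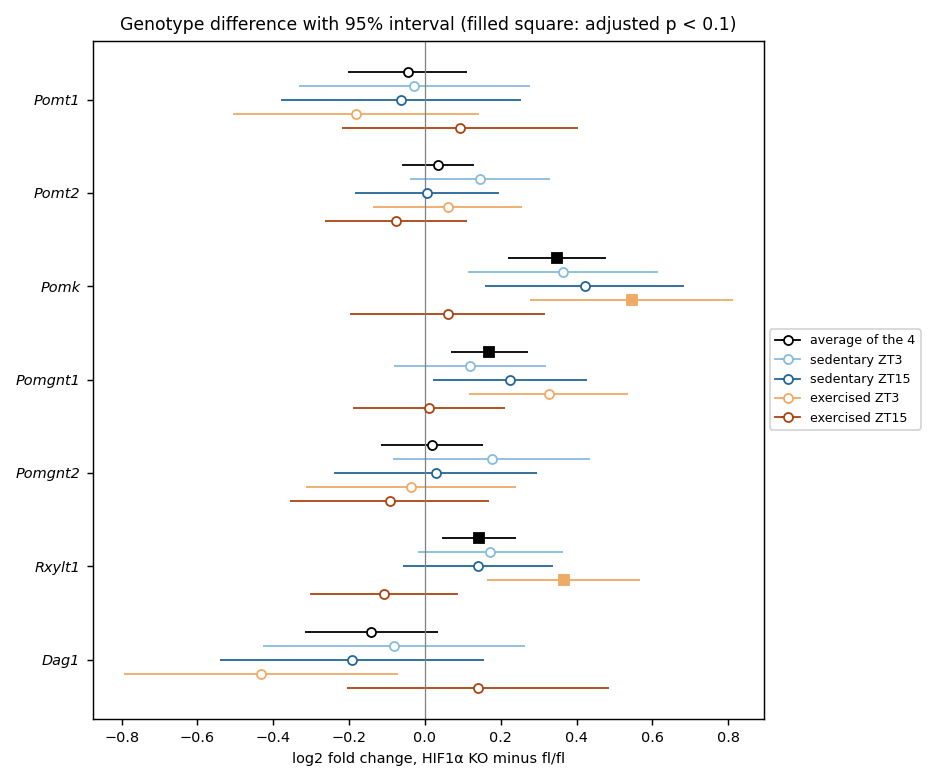
Genotype difference (log2 fold change, HIF1α KO minus fl/fl, x axis) of the 7 genes with 95% intervals, as the average of the 4 combinations (black) and in each combination; filled squares mark an adjusted p under 0.1. Pomk (0.35), Pomgnt1 (0.17) and Rxylt1 (0.14) are filled for the average, and Pomk (0.55) and Rxylt1 (0.37) for exercised mice at ZT3, while the values of exercised mice at ZT15 lie between -0.11 and 0.14.

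The first step is made in the endoplasmic reticulum by POMT1 and POMT2, which together transfer mannose to serine or threonine. Pomt1 (chromosome 2, 32236590 to 32255005, plus strand) ranged from 6.17 to 13.3 CPM in fl/fl mice, with a median of 9.60 (n = 32), and from 5.14 to 12.97 CPM in HIF1α KO mice, with a median of 9.54 (n = 31). Its genotype difference was -0.05 on the log2 scale (SE 0.0786, adjusted p = 0.798, edgeR). Pomt2 (chromosome 12, 87106861 to 87147968, minus strand) ranged from 8.22 to 15.3 CPM, median 10.8, in fl/fl mice and from 8.69 to 13.4 CPM, median 11.2, in HIF1α KO mice. The genotypes overlapped almost entirely in both genes, and the difference of Pomt2 was 0.03 (SE 0.0475, adjusted p = 0.740, edgeR). Expressed as a fold, the 95% intervals ran from 0.869 to 1.08 for Pomt1 and from 0.958 to 1.09 for Pomt2. Pomt2 shares 465 bases of exon, 5.85% of its length, with Gstz1 on the other strand, and Pomt1 shares 4 bases with Uck1. Neither neighbor differed by genotype in the test (adjusted p = 0.479 for Gstz1 and 0.991 for Uck1, edgeR).

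POMK phosphorylates the mannose once it has been extended, a step that the later enzymes need. Pomk (chromosome 8, 25980604 to 25994133, minus strand, 1 annotated transcript) showed the largest genotype difference of the 7 genes. In sedentary mice at ZT3 it ranged from 7.94 to 20.4 CPM, median 10.5, in fl/fl mice and from 12.1 to 17.6 CPM, median 14.3, in HIF1α KO mice. In sedentary mice at ZT15 it ranged from 8.37 to 12.8 CPM, median 9.60, in fl/fl mice and from 9.72 to 17.4 CPM, median 14.1, in HIF1α KO mice. Every one of the 8 HIF1α KO mice exceeded the fl/fl median in each of these sedentary settings, although the ranges overlapped. Of the 28 other tested genes within 1 Mb of Pomk, 5 were called by averaged genotype, against 8.26% of all genes. Of these, 4 were higher in HIF1α KO mice, and Htra4 was lower (log2 -1.21, SE 0.180, adjusted p = 2.86e-06, edgeR). The part of this neighborhood in the Pomk difference was not tested.

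In exercised mice at ZT3 Pomk ranged from 4.68 to 11.8 CPM, median 10.3, in the 8 fl/fl mice and from 12.4 to 19.5 CPM, median 13.01, in the 7 HIF1α KO mice. The genotypes did not overlap there, which was the case for 36 of 15241 genes (0.236%). In exercised mice at ZT15 it ranged from 9.31 to 16.1 CPM, median 11.1, in fl/fl mice and from 8.96 to 16.96 CPM, median 11.2, in HIF1α KO mice, and only 4 of 8 HIF1α KO mice exceeded the fl/fl median. Over all combinations 27 of 31 HIF1α KO mice did so, and Pomk was 1.27-fold higher (95% interval 1.16 to 1.39, log2 0.35, SE 0.0651, adjusted p = 0.000214, edgeR). In none of the 63 fits that left out 1 library, nor in the 10 other settings that kept both sexes, was the call lost, and the log2 value stayed between 0.31 and 0.37. In females alone it was lost (log2 0.20, adjusted p = 0.691, edgeR), and in males alone it was kept (log2 0.51, adjusted p = 0.000620).

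**Figure D2:**
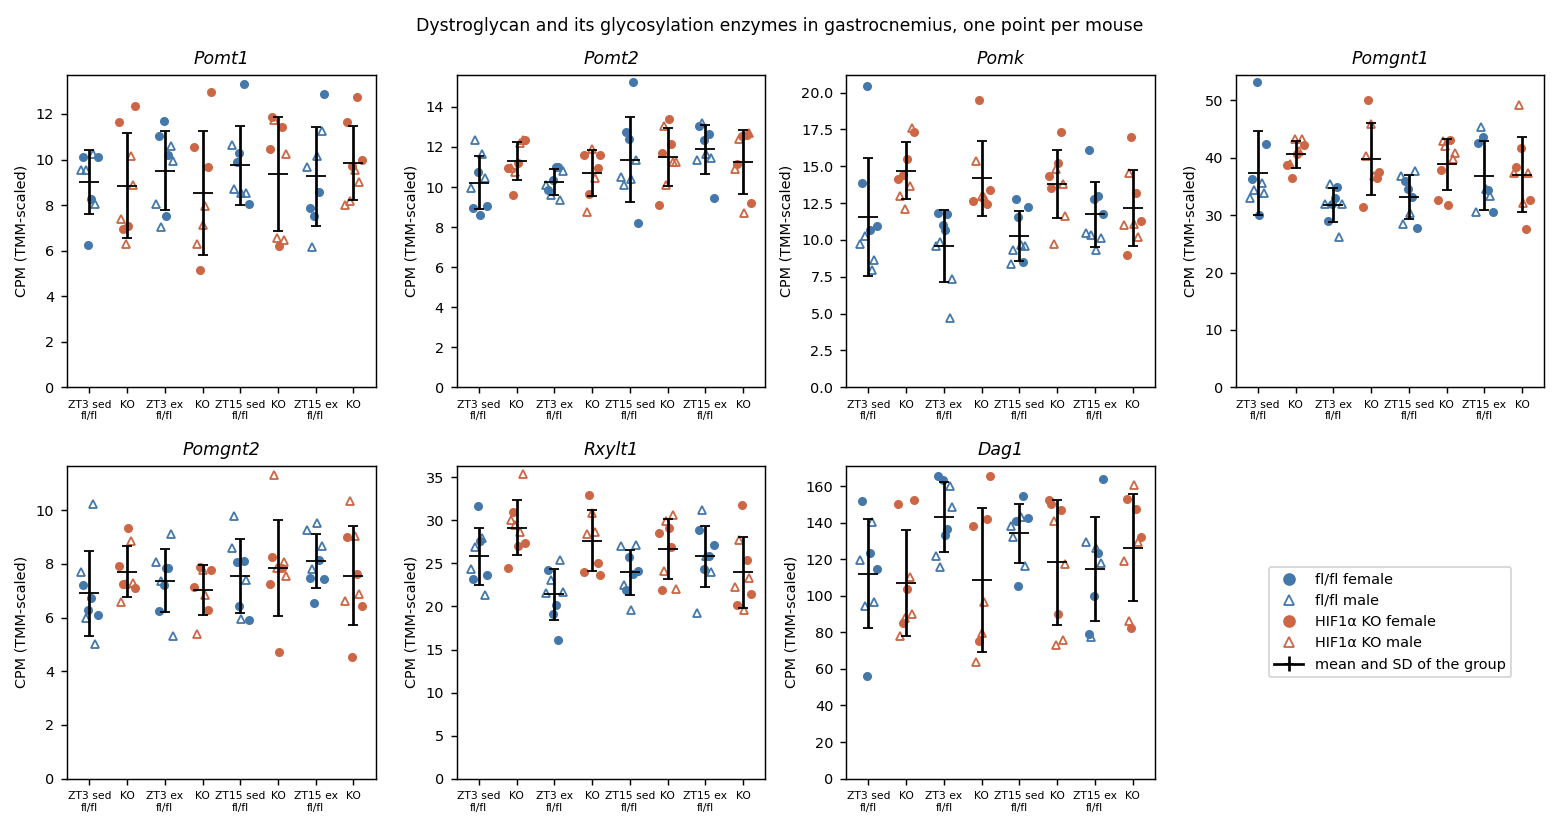
CPM (y axis, from 0) of each gene in the 8 groups, with 1 point per mouse (filled circles female, open triangles male; blue fl/fl, orange HIF1α KO) and the group mean with SD in black. Pomk of HIF1α KO mice lies above every fl/fl mouse at ZT3 after exercise, and Dag1 spreads from 63.8 to 166 CPM within the 7 exercised HIF1α KO mice at ZT3.

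Of the 2 N-acetylglucosamine transferases, POMGNT2 acts in the endoplasmic reticulum on the branch that will carry matriglycan, and POMGNT1 acts in the Golgi on a different O-mannose branch and is also needed for the finished chain. Pomgnt1 (chromosome 4, 116123840 to 116159849, plus strand) ranged from 30.1 to 53.2 CPM, median 35.1, in sedentary fl/fl mice at ZT3 and from 36.5 to 43.3 CPM, median 40.96, in HIF1α KO mice. At ZT15 the sedentary fl/fl mice ranged from 27.7 to 37.6 CPM, median 33.8, and the HIF1α KO mice from 31.8 to 43.04 CPM, median 40.3. After exercise at ZT3 the values were 26.1 to 35.4 CPM, median 31.9, against 31.5 to 49.99 CPM, median 37.6. In the last pair 6 of 7 HIF1α KO mice lay above all fl/fl mice.

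After exercise at ZT15 the Pomgnt1 medians were 34.5 CPM in fl/fl mice, ranging from 30.5 to 45.3, and 37.4 CPM in HIF1α KO mice, ranging from 27.6 to 49.2. Of all 31 HIF1α KO mice 25 exceeded the matching fl/fl median, and the averaged difference was 1.13-fold (95% interval 1.05 to 1.21, log2 0.17, SE 0.0510, adjusted p = 0.0375, edgeR). That call held in all 63 fits that left out 1 library and in the 10 other settings that kept both sexes, but was lost in females alone (log2 0.07, adjusted p = 0.956, edgeR), against 0.27 (adjusted p = 0.0126) in males alone. Pomgnt1 shares 641 bases of exon, 11.7% of its length, with Lurap1 on the other strand. The strand setting used in counting was not given in the sources used here, and Lurap1 itself, at 7.42 ± 1.79 CPM (SD, n = 63), had a genotype difference of 0.04 (adjusted p = 0.794, edgeR).

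Pomgnt2 (chromosome 9, 121981606 to 121997110, minus strand) was low, ranging from 5.02 to 10.2 CPM, median 7.45, in fl/fl mice and from 4.54 to 11.3 CPM, median 7.56, in HIF1α KO mice. Its genotype difference was 0.02 (SE 0.0668, adjusted p = 0.916, edgeR), with a 95% interval from 0.923-fold to 1.11-fold. The transferases therefore gave unlike readings, Pomgnt1 called and Pomgnt2 not, but the difference between these genes was not tested.

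RXYLT1 adds xylose to the ribitol phosphate that earlier enzymes put in place, and so starts the primer on which matriglycan is built. Rxylt1 (chromosome 10, 122078114 to 122097371, minus strand) ranged from 21.4 to 31.7 CPM, median 25.7, in sedentary fl/fl mice at ZT3 and from 24.5 to 35.4 CPM, median 29.04, in HIF1α KO mice. In sedentary mice at ZT15 the ranges were 19.6 to 27.1 CPM, median 23.9, and 21.9 to 30.7 CPM, median 27.7. After exercise at ZT3 they were 16.1 to 25.4 CPM, median 21.6, and 23.7 to 32.95 CPM, median 28.4. All 7 HIF1α KO mice of the exercised ZT3 group exceeded the fl/fl median, and 4 of them exceeded every fl/fl mouse.

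After exercise at ZT15 the order of the Rxylt1 medians turned. The fl/fl mice ranged from 19.3 to 31.3 CPM, median 25.9, and the HIF1α KO mice from 19.6 to 31.8 CPM, median 22.8, with 2 of 8 above the fl/fl median. The averaged difference was 1.10-fold (95% interval 1.03 to 1.18, log2 0.14, SE 0.0492, adjusted p = 0.0792, edgeR). It was the least secure of the 3 calls, since it was kept in 42 of the 63 fits that left out 1 library (adjusted p 0.0346 to 0.137) and in 6 of the 10 other settings, for example not with the run of mouse numbers as a covariate (log2 0.11, adjusted p = 0.155), and it was kept in neither sex alone (log2 0.12, adjusted p = 0.817 in females; log2 0.17, adjusted p = 0.125 in males).

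Dag1 (chromosome 9, 108204634 to 108263958, minus strand), which encodes dystroglycan itself, did not pass the genotype test. It ranged from 56.3 to 166 CPM, median 128, in fl/fl mice (n = 32) and from 63.8 to 166 CPM, median 117, in HIF1α KO mice (n = 31). The difference was -0.14 (SE 0.0876, adjusted p = 0.365, edgeR), and 12 of 31 HIF1α KO mice exceeded the matching fl/fl median. The 95% interval, 0.803-fold to 1.02-fold, leaves room for a decrease of the same size as the increases of Pomgnt1 and Rxylt1.

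Among the single combinations, members passed the test only in exercised mice at ZT3, where Pomk was 1.46-fold higher (log2 0.55, SE 0.134, adjusted p = 0.0495) and Rxylt1 1.29-fold higher (log2 0.37, SE 0.101, adjusted p = 0.0735) in HIF1α KO muscle by edgeR's quasi-likelihood test. These are 2 of 7 genes, against 1.43% of all genes, and this count too is a description without a test. Pomgnt1 (log2 0.33, adjusted p = 0.122, but 0.0769 by DESeq2) and Dag1 (log2 -0.43, adjusted p = 0.207) had their largest differences in the same mice without passing. No member passed in sedentary mice at ZT3 (0.4% of all genes called), in sedentary mice at ZT15 (0.0459%) or in exercised mice at ZT15 (0.4%), by edgeR or by DESeq2, and 1, 2 and 0 members had an unadjusted p under 0.05 there. When each of these 15 libraries was left out in turn, both calls were lost without mouse 20, 23 or 28, with adjusted p then at 0.107 to 0.192 for Pomk, and the Rxylt1 call was lost also without mouse 13, 36, 48 or 57.

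Whether the genotype difference itself depended on time or treatment was tested with interaction terms, and 0 of 15241 genes passed in any of the 4 interactions by edgeR, with 535 to 2323 genes at an unadjusted p under 0.05. In exercised mice the genotype difference was smaller at ZT15 than at ZT3 by 0.47 for Rxylt1 (unadjusted p = 0.00129, adjusted p = 0.217) and by 0.49 for Pomk (unadjusted p = 0.0113, adjusted p = 0.252). Among all genes 2323 (15.2%) had an unadjusted p under 0.05 in that interaction, and 4 of the 7 members did, the others being Pomgnt1 and Dag1. DESeq2 called 0 to 29 genes in the 4 interactions and no member. A larger genotype difference at ZT3 than at ZT15 after exercise is thus not established for any of the 7 genes.

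Levels of several members varied with the mouse numbers in the library labels. Taken in 4 runs of 16 numbers, these accounted for 62.3% of the variance of log2 CPM of Dag1, 43.1% for Pomt1, 31.1% for Rxylt1, 28.9% for Pomgnt1 and 24.9% for Pomk, against a median of 12.8% over all genes tested. What the runs stand for is not given in the labels. Dag1 averaged 6.46 ± 0.441 log2 CPM (SD, n = 6) in fl/fl mice and 6.32 ± 0.149 (n = 10) in HIF1α KO mice of numbers 17 to 32, and between 6.77 and 7.16 in the 6 other sets. The share of counts on the mitochondrial ribosomal RNAs mt-Rnr1 and mt-Rnr2 moved with the runs too, with medians of 6.55%, 1.84%, 2.67% and 5.12% from the lowest to the highest numbers. Its group medians differed between the genotypes as well. From fl/fl to HIF1α KO mice its median went from 4.06% to 2.26% in sedentary mice at ZT3. It went from 5.94% to 3.42% in exercised mice at ZT3 and from 4.54% to 4.24% in sedentary mice at ZT15. In exercised mice at ZT15 it was higher in HIF1α KO mice, at 5.34% against 2.49%. The genotype medians of Pomk met and those of Rxylt1 turned in that combination, and the part of this share there was not tested. With the log2 share as a covariate the averaged genotype difference was 0.31 for Pomk (adjusted p = 7.67e-05), 0.14 for Pomgnt1 (adjusted p = 0.0290) and 0.11 for Rxylt1 (adjusted p = 0.113, edgeR). The first 2 calls were kept and that of Rxylt1 was not.

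Of the exercised mice at ZT3, 3 of 7 HIF1α KO mice and 0 of 8 fl/fl mice carried numbers 17 to 32, and these 3 are mice 20, 23 and 28. In these mice Dag1 stood at 63.8, 75.2 and 79.5 CPM, against 96.7 to 166 CPM in the other 4 HIF1α KO mice, and genotype and run cannot be told apart for them. With the run as a covariate the exercised ZT3 difference was 0.42 for Pomk (adjusted p = 0.147) and 0.24 for Rxylt1 (adjusted p = 0.409, edgeR), so that neither passed. In plain means, adjusted for neither sex nor group, Pomk was higher in HIF1α KO mice within all 4 runs, by 0.20, 0.14, 0.41 and 0.52 on the log2 scale. The sexes were uneven within runs, for example 5 females and 2 males among the HIF1α KO mice of numbers 49 to 64 against 4 and 5 among fl/fl mice. With group, sex and run in 1 fit the averaged difference of Pomk was 0.31 (adjusted p = 0.000115, edgeR) and that of Pomgnt1 0.14 (adjusted p = 0.0558). In plain means Pomgnt1 was higher in 3 of the runs (0.18, 0.25 and 0.13) and at -0.02 in numbers 17 to 32. Rxylt1 was higher in the first 3 (0.06, 0.14 and 0.28) and at -0.04 in numbers 49 to 64. Its mean log2 CPM was highest in numbers 17 to 32 in both genotypes, at 4.78 ± 0.208 (SD, n = 6) in fl/fl mice and 4.92 ± 0.0746 (n = 10) in HIF1α KO mice. The part of the run in the turned Rxylt1 medians of exercised mice at ZT15 was not tested.

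**Figure D3:**
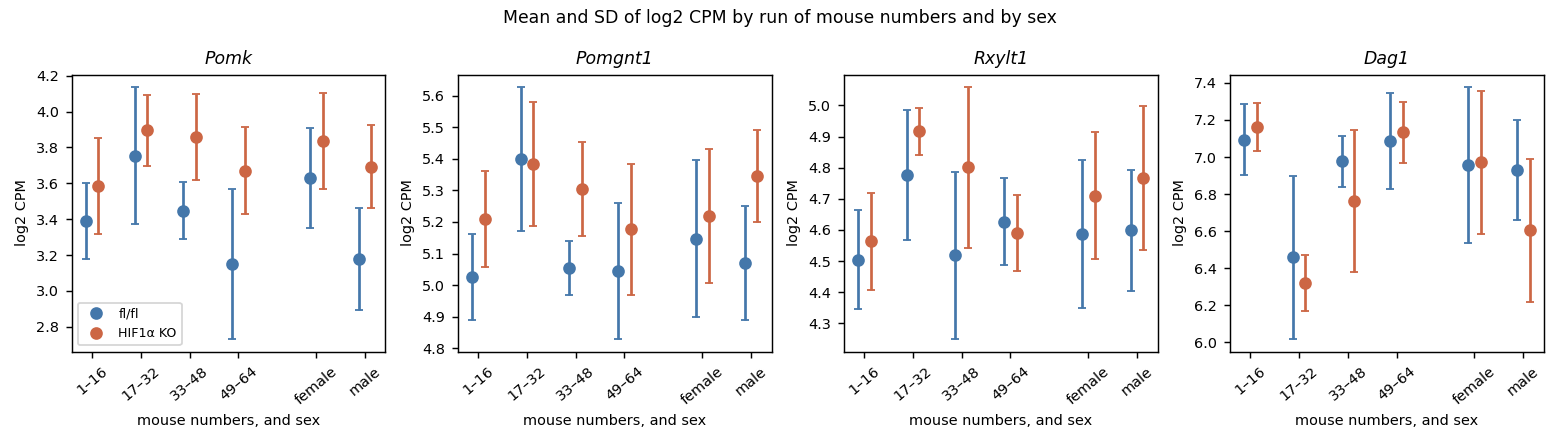
Mean and SD of log2 CPM (y axis, not from 0) of Pomk, Pomgnt1, Rxylt1 and Dag1 in fl/fl (blue) and HIF1α KO (orange) mice by run of 16 mouse numbers (6 to 10 mice a point) and by sex (15 or 16 mice a point). Pomk is higher in HIF1α KO mice in every run, and Dag1 is lowest in numbers 17 to 32 in both genotypes.

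Sex was a factor of the design as well. Pomk fell by 0.30 on the log2 scale in males relative to females (SE 0.0651, adjusted p = 0.000408), with a median of 12.9 CPM and a range of 8.47 to 20.4 in the 32 females and a median of 10.3 CPM and a range of 4.68 to 17.6 in the 31 males. Dag1 was lower in males by edgeR's test too (log2 -0.21, SE 0.0879, adjusted p = 0.0772), with medians of 140 and 117 CPM. These are 2 of 7 genes where 25.1% of all genes were called. The other 5 genes did not pass, the nearest being Pomt1 (log2 -0.17, adjusted p = 0.128), which passed in 3 of 9 other settings (adjusted p 0.0221 to 0.0884 there). Slow-fiber markers (Myh7, Tnnt1, Tnni1, Myl2 and Atp2a2) were lower in males for 5 of 5 genes, and their summed level ranged from 493.2 to 3289 CPM in females and from 297 to 1458 CPM in males. With a slow-fiber score as a covariate Pomk kept its call and Dag1 did not (log2 -0.22, adjusted p = 0.262).

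The genotype differences of the members were read by sex as well. In males alone Pomk was higher in HIF1α KO mice, with mean log2 CPM of 3.69 ± 0.231 (SD, n = 15) against 3.18 ± 0.282 (n = 16), and in females the means were 3.83 ± 0.269 (n = 16) and 3.63 ± 0.278 (n = 16). For Dag1 the means were 6.61 ± 0.386 and 6.93 ± 0.268 in males and 6.97 ± 0.385 and 6.96 ± 0.421 in females. Fitted in males alone, Dag1 was lower in HIF1α KO mice (log2 -0.33, adjusted p = 0.0469, edgeR), while in females alone it was at 0.02 (adjusted p = 0.998). Of the males, 6 of 15 HIF1α KO mice and 2 of 16 fl/fl mice carried numbers 17 to 32, where Dag1 was lowest in both genotypes, against 4 and 4 of the females. With the run as a covariate, a setting added after the data were seen, Dag1 did not pass in males alone (log2 -0.18, adjusted p = 0.418, edgeR). The interaction of genotype and sex did not pass for any member (Pomk 0.32, unadjusted p = 0.0135, adjusted p = 0.424; Pomgnt1 0.21, unadjusted p = 0.0403, adjusted p = 0.439; Dag1 -0.34, unadjusted p = 0.0547, adjusted p = 0.449), so that a difference between the sexes is not shown.

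No member passed the test for time of day or for exercise. Between ZT15 and ZT3, averaged over genotype and treatment, 8.02% of all genes were called by edgeR, and of the members 0 passed and 1 had an unadjusted p under 0.05. Between exercised and sedentary mice 2.84% of all genes were called, and 0 members had an unadjusted p under 0.05. The member with that unadjusted p was Pomt2, higher at ZT15 by 0.13 (SE 0.0475, adjusted p = 0.114, edgeR), which passed in 5 of 10 other settings. In fl/fl mice the medians of Pomt2 were 10.2 CPM sedentary and 10.2 CPM exercised at ZT3, and 10.9 and 12.0 CPM at ZT15. In HIF1α KO mice they were 11.1 and 10.9 CPM at ZT3 and 11.5 and 11.8 CPM at ZT15. Across the 8 comparisons of time or exercise within 1 genotype, the smallest adjusted p was 0.245, for Rxylt1 between ZT15 and ZT3 in exercised fl/fl mice (log2 0.27, edgeR). In fl/fl mice at ZT3 Rxylt1 was at -0.27 after exercise (SE 0.0984, adjusted p = 0.264).

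**Figure D4:**
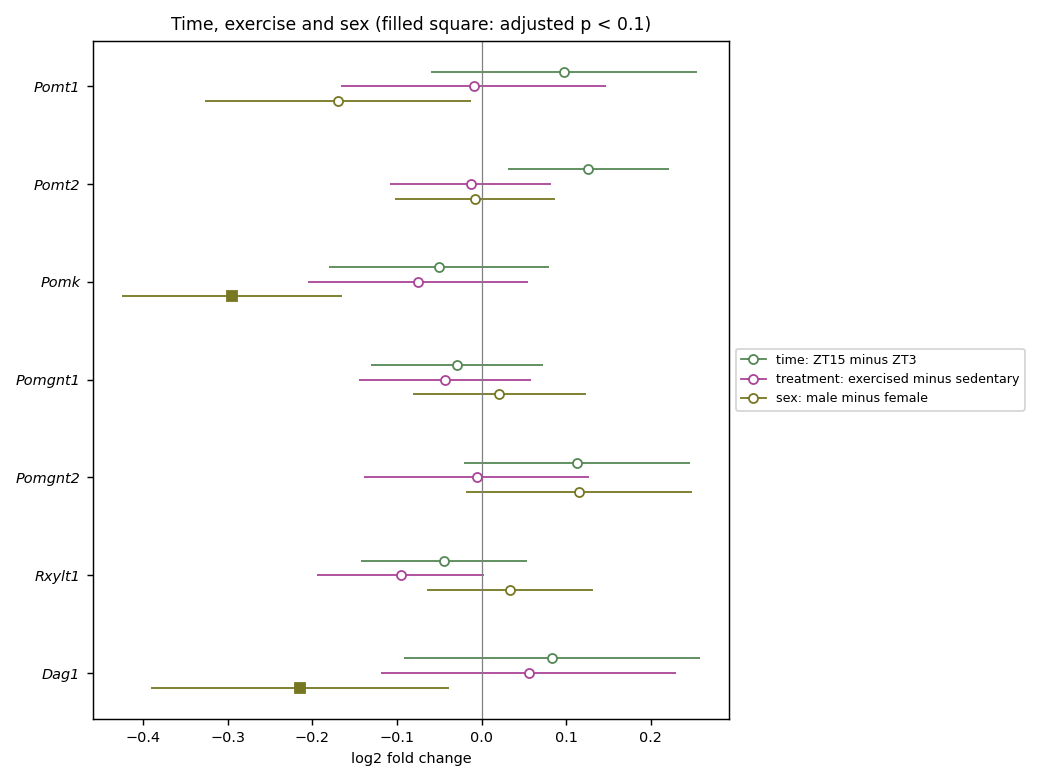
Log2 fold change (x axis) of the 7 genes for time (ZT15 minus ZT3), treatment (exercised minus sedentary) and sex (male minus female) with 95% intervals; filled squares mark an adjusted p under 0.1. The squares of Pomk (-0.30) and Dag1 (-0.21) for sex are filled, and no value for time or treatment is.

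The members did not rise and fall as one set. Over the 63 libraries, Pearson's r of log2 CPM between pairs ranged from -0.65 (Rxylt1 and Dag1; Spearman's rho -0.61) to 0.80 (Pomt1 and Dag1; rho 0.80, and r 0.79 without the 2 libraries farthest from the median of Pomt1). The 3 enzymes called by genotype were positively related to each other (r 0.48 to 0.57) and negatively to Dag1 (r -0.65 to -0.46). After removal of group, sex and run of mouse numbers these values were 0.10 to 0.36 and -0.41 to -0.33, and Pomt1 with Dag1 stood at 0.61. Within single runs r ranged from 0.50 to 0.84 for Pomt1 with Dag1 and from -0.78 to 0.41 for Rxylt1 with Dag1, with -0.78 and -0.74 in numbers 17 to 32 and 33 to 48 and 0.03 and 0.41 in the lowest and highest numbers, so that the second relation did not hold in every run. Within runs r also ranged from -0.53 to 0.02 for Pomgnt1 with Dag1 and from -0.50 to 0.46 for Pomk with Dag1. Between the enzymes it ranged from -0.01 to 0.61 for Pomgnt1 with Rxylt1. The ranges were 0.12 to 0.58 for Rxylt1 with Pomk and 0.01 to 0.89 for Pomgnt1 with Pomk. The libraries share depth, mouse-number run and tissue make-up, so these values describe the libraries and carry no test. The log2 share of mitochondrial ribosomal RNA had r = 0.77 with Dag1 and 0.60 with Pomt1, and -0.63 with Pomgnt1, -0.63 with Rxylt1 and -0.53 with Pomk.

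Genes whose log2 CPM most resembled each member over the 63 libraries were named by Pearson's r alone. For Dag1 they were Sptb (0.93), Acin1 (0.93) and Prrc2c (0.92), and for Pomt1 Dag1 itself (0.80), Kank2 (0.80) and Smarca4 (0.79). For Pomgnt1 they were Gstp1 (0.78), Neurl2 (0.78) and Psmb5 (0.77), and for Rxylt1 Psma4 (0.79), Phf10 (0.79) and Rpl23a (0.78). Pomk was most like Gm39469 (0.76), Sec23a (0.75) and Hint1 (0.75), Pomgnt2 most like Kif1c (0.70), Pabpc4 (0.68) and Irf2bpl (0.67), and Pomt2 least like any gene, with Rnf40 (0.52), Rgl2 (0.49) and Rnf166 (0.49). Psmb5 and Psma4 encode proteasome subunits, and Sptb encodes a spectrin of the membrane skeleton. After removal of group, sex and run of mouse numbers, r was 0.33 for Pomk with Gm39469, 0.53 with Sec23a and 0.51 with Hint1. For the genes named with Dag1 it was then 0.84 to 0.85, and for Pomt2 with Rnf40 it was 0.63.

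Another enzyme of the chain was lower in HIF1α KO muscle on average, namely B3galnt2, whose product adds the N-acetylgalactosamine next in line after POMGNT2. It ranged from 65.5 to 199 CPM, median 128, in fl/fl mice and from 84.5 to 152 CPM, median 109, in HIF1α KO mice (log2 -0.26, SE 0.0601, adjusted p = 0.00522, edgeR).

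POMK acts on the trisaccharide that POMGNT2 and B3GALNT2 complete, and of these genes Pomk was higher, B3galnt2 lower and Pomgnt2 not called. B3galnt2 kept its call in all 10 other settings with both sexes (log2 -0.29 to -0.26), in all 63 fits that left out 1 library and in females alone, but not in males alone (log2 -0.17, adjusted p = 0.174, edgeR). Of 16 genes that supply the mannose, dolichol, glucuronic acid and xylose donors 1 passed, near the 8.26% of all genes called. It was Mpi, whose product interconverts fructose-6-phosphate and mannose-6-phosphate and which ranged from 28.8 to 43.3 CPM, median 33.9, in fl/fl mice and from 30.0 to 52.6 CPM, median 38.8, in HIF1α KO mice (log2 0.18, SE 0.0460, adjusted p = 0.0148). Pmm1 (-0.22, adjusted p = 0.181) and Dhdds (-0.19, adjusted p = 0.119) were the nearest of the 15 others. Of 5 tested genes for O-mannose made without POMT1 and POMT2, 1 was lower, with 8.26% of all genes called: Tmem260, which serves plexins and related receptors (log2 -0.19, SE 0.0509, adjusted p = 0.0152, edgeR).

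Dystroglycan is one part of the dystrophin-glycoprotein complex, which ties the cytoskeleton to the membrane. Of 15 other genes of the complex tested, 3 were lower and 1 higher in HIF1α KO muscle, where 8.26% of all genes were called. Dmd, which encodes dystrophin, ranged from 467 to 916 CPM, median 688, in fl/fl mice and from 402 to 704 CPM, median 511, in HIF1α KO mice (log2 -0.40, SE 0.0530, adjusted p = 1.96e-07, edgeR). Sgcb, which encodes β-sarcoglycan, went from a median of 82.5 CPM to 67.5 CPM (log2 -0.33, SE 0.0600, adjusted p = 0.000117), and Sspn, which encodes sarcospan, from 68.0 to 59.8 CPM (log2 -0.19, adjusted p = 0.0438). Sntb1, which encodes the adapter β1-syntrophin, went from a median of 9.88 CPM to 17.3 CPM (log2 0.78, SE 0.104, adjusted p = 1.96e-07), with ranges of 4.26 to 28.9 and 5.33 to 31.04 CPM that overlap. Each of these 4 calls held in the 10 other settings that kept both sexes and in all 63 fits that left out 1 library. In females alone Dmd and Sntb1 kept their calls, and Sgcb (log2 -0.24, adjusted p = 0.441) and Sspn (log2 -0.12, adjusted p = 0.920) did not. The median over the 15 genes was -0.03.

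On the outside of the fiber, 2 of 10 tested genes for proteins with laminin G-like domains that bind matriglycan, or for the laminin chains beside them, were lower, against 8.26% of all genes called in either direction. They were Lama2, the laminin chain of the muscle basement membrane, which went from a median of 140 CPM (range 114 to 171) to 128 CPM (range 99.8 to 155; log2 -0.16, SE 0.0387, adjusted p = 0.00726, edgeR), and Egflam, which encodes pikachurin (log2 -0.19, adjusted p = 0.0731). Egflam lost its call in 3 of 10 other settings and in 4 of the 63 fits that left out 1 library. In females alone neither passed, nor did Mpi or Tmem260 (adjusted p 0.405 to 0.876, edgeR). The median over the 10 genes was -0.13. Markers of cells other than fibers moved in the same comparison: 3 of 4 Schwann cell markers, 2 of 3 smooth muscle markers and 1 of 4 fibroblast markers were lower in HIF1α KO muscle, and 1 of 3 satellite cell markers was higher. Endothelial, macrophage, adipocyte and red blood cell markers, fiber markers and slow-fiber markers gave no call. The summed fibroblast markers ranged from 942 to 2773 CPM in fl/fl mice and from 836 to 1986 CPM in HIF1α KO mice, and those of Schwann cells from 37.9 to 177 CPM and from 33.1 to 154 CPM. Their part in the results was not tested.

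**Figure D5:**
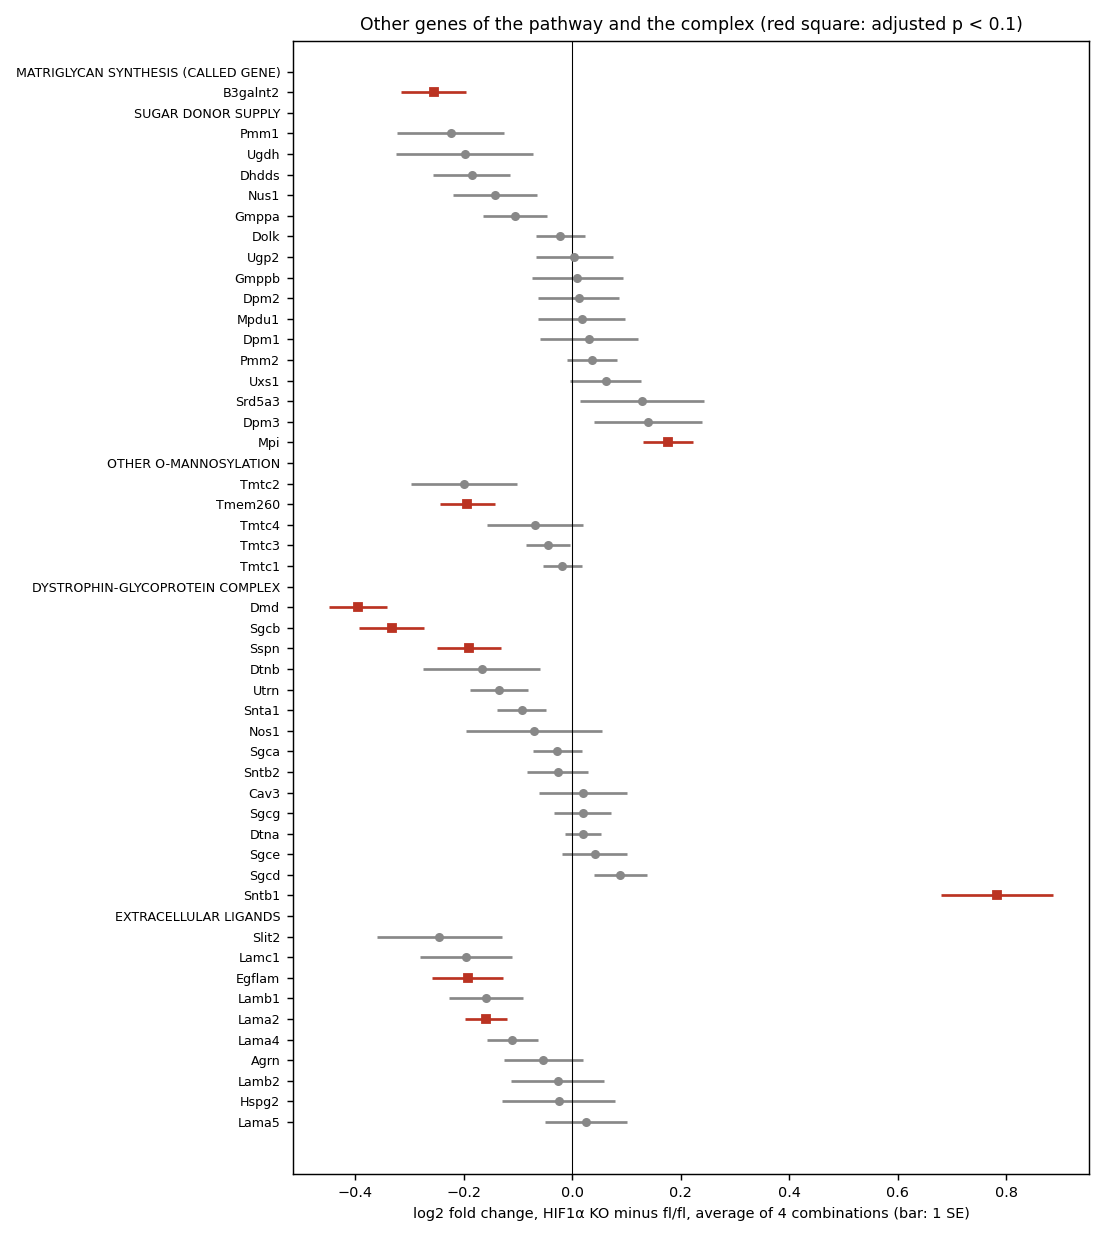
Averaged genotype difference (log2 fold change, HIF1α KO minus fl/fl, x axis; bars 1 SE) of each tested gene in 4 lists around the pathway and, from the enzymes of matriglycan synthesis, of the called gene B3galnt2; red squares mark an adjusted p under 0.1. Sntb1 (0.78) is the only red square of its list on the right, and Dmd (-0.40), Sgcb (-0.33) and B3galnt2 (-0.26) lie farthest left among the red ones.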

How the data were processed

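Per the labels and the study's methods, stranded mRNA libraries were made from gastrocnemius total RNA of single mice, and the submitters' processing notes name STAR, featureCounts and mm10. The authors deposited raw read counts per gene, which are neither normalized nor filtered; annotation release and strand setting are not given in the sources used here. Gene identifiers were matched to GENCODE (55141 of 55401, 54349 with the same version). Counts were tested with edgeR 4.0.16 in R 4.3.3 (TMM, filterByExpr at a minimum count of 10, quasi-likelihood test, group plus sex, 63 libraries in 1 fit), and p-values were adjusted over all 15241 genes (Benjamini-Hochberg, threshold 0.1). "Averaged" contrasts weight the 4 combinations equally. CPM are TMM-scaled, and log2 CPM used a prior count of 2. Every mouse is 1 replicate, and depth ran from 2359780 to 40377963 counts. The test was run on simulated counts that held no effect of sex, mouse-number run or mitochondrial ribosomal RNA share, so that check does not bear on these. Alternatives were the library of mouse 44, no sex term, 2 filters, RLE scaling, DESeq2 1.42.0, the mouse-number run, the mitochondrial ribosomal RNA share, no libraries under 5e6 counts, a slow-fiber score, only the groups compared, each sex alone, a threshold of 0.05 and leaving out each library. Leaving out libraries within the exercised ZT3 comparison, and reading single genes under each alternative, were added after seeing the data. Named genes were the 7 members, the called genes of the lists (at most 6 a list) and the 3 genes most like each member. Htra4 was named as a called gene within 1 Mb of Pomk. Results for part of the matriglycan synthesis list are not reported here. The members and the lists were chosen with earlier results of these data known. 0 columns lacked a sample.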

Additional observations from a re-analysis of the deposited data

Results flagged for a closer look

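One value among 56 sets (7 genes in 8 groups) stood apart from its group by Dixon's ratio, where chance alone gives about 1 in 20. Pomk was at 19.5 CPM in exercised HIF1α KO mouse 23 at ZT3, with the next mouse of the group at 15.4 CPM (ratio 0.587, n = 7). Without that mouse the exercised ZT3 genotype difference of Pomk was 0.48 (edgeR adjusted p = 0.192), and the averaged difference kept its call.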

How the results depend on the processing

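In the averaged genotype comparison the count of called members was 2 to 3 over the 63 fits that left out 1 library, and in the 10 other settings it lay between 2 and 3. Rxylt1 alone went in and out. Its call was lost without mouse 5, 7, 10, 13, 14, 17, 23, 24, 25, 27, 28, 29, 30, 41, 43, 45, 46, 48, 57, 60 or 62, without a filter (adjusted p = 0.177), with the run of mouse numbers (0.155), with the mitochondrial ribosomal RNA share (0.113) and without the 3 shallow libraries (0.131). In exercised mice at ZT3 the count of 2 became 1 at a threshold of 0.05, without a filter and without the shallow libraries, became 0 without the sex term, with the run of mouse numbers and with the ribosomal RNA share, and ranged from 0 to 3 when 1 library was left out. The count of 0 for time became 1 (Pomt2) with at least 10 counts in every library, RLE scaling, the run, the ribosomal RNA share and DESeq2. The count of 2 for sex became 1 at a threshold of 0.05, without a filter and with the slow-fiber score, and 3, with Pomt1, with at least 10 counts in every library, the run and the ribosomal RNA share. Values near 0 changed sign: in the averaged genotype comparison Pomgnt2 in males alone (-0.0182) and when 1 library was left out (-0.00699 to 0.0396), Pomt1 with the run (0.00316) and in females alone (0.0613), and Dag1 in females alone (0.0190); in exercised mice at ZT3 Pomgnt2 with the run (0.0813) and when 1 library was left out (-0.115 to 0.0303); and for sex Rxylt1 with the slow-fiber score (-0.00250) and Pomt2 without shallow libraries (0.000154). In females alone, with 16 mice a genotype, none of the 3 called members passed, with or without the run (a setting added after the data were seen), and with the run in males alone Pomk (0.41, adjusted p = 0.0172) and Pomgnt1 (0.23, 0.0947) did. The cause of these changes was not tested. Over all genes the averaged genotype count was 1259, against 778 without a filter, 934 without the sex term, 113 in females alone and 2261 in males alone (206 and 325 with the run), and the exercised ZT3 count was 218, against 38 without the sex term, 49 without a filter, 59 with the run, 84 with the ribosomal RNA share, 142 without shallow libraries, 482 with DESeq2 and 324 with at least 10 counts in every library. The count for time was 1222, against 2030 with the run, and that for sex was 3821, against 2152 with the slow-fiber score. No paired analysis was possible because each mouse number occurs once. Depth limits Pomgnt2 and Pomk most, with as few as 16 and 19 counts in a library.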
